A study of Mus musculus with 9 samples.

Results

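Fth-ps3, a processed pseudogene of ferritin heavy chain, was set beside its parent Fth1 and the iron handling genes Ftl1, Tfrc, Slc11a2, Slc40a1, Aco1 and Ireb2 in neonatal mouse muscle. These 8 genes were taken by symbol from a table of 55471 gene IDs. Fth-ps3 was selected on its own measured levels, high in KO2 to KO5 and low in KO1 and every WT mouse, so its values are given as a description without a test; the other 7 were listed by name. The study sequenced RNA of the gastrocnemius, a calf muscle, from 5 homozygous Shank3Δ11(-/-) mice (KO1 to KO5), in which exon 11 of the gene is deleted, and from 4 Shank3(+/+) mice (WT1 to WT4), with no treatment named in the labels, at postnatal day 0 to 1. The labels give C57BL/6 as background for all of them, while the methods name C57BL/6 for the wildtype animals and heterozygous C57BL/6JRj parents for the knockouts. Each mouse gave 1 library. Whole muscle was used, so blood, immune and connective tissue cells are part of each sample, and fewer cells of a type cannot be told apart from less RNA per cell. Library totals were between 26444372 and 40471957 counts. The study's own comparison left out KO2 and KO4, and KO1, KO3 and KO5 against the 4 WT mice is therefore the main comparison here, with all 9 mice beside it. Shank3 itself had 25.8 to 35.1 CPM (counts scaled to library size) in KO and 32.5 to 38.5 CPM in WT; counts over the whole gene include the exons outside the deletion and do not check the genotype labels.

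Ferritin is a hollow shell of heavy and light subunits that stores iron inside cells. Fth1 encodes the heavy subunit, which oxidises incoming iron, and Ftl1 the light subunit, which helps the iron mineralise. Transferrin receptor (Tfrc) and DMT1 (Slc11a2) bring iron in, and ferroportin (Slc40a1) lets it out. The iron regulatory proteins IRP1 (Aco1) and IRP2 (Ireb2) bind a short hairpin, the iron-responsive element, when iron is scarce, which blocks translation of ferritin and ferroportin mRNA and stabilises that of Tfrc, so much of this control acts on protein and not on RNA level. A processed pseudogene such as Fth-ps3 is an intron-free copy of an mRNA that was inserted elsewhere in the genome.

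Fth-ps3 lies on the plus strand at chr8:86915157-86915514 (mm10) and is annotated as 1 exon of 358 bases. It sits in an intron of the lincRNA Gm27167 on the same strand, shares 0 exon bases with it, and Gm27167 had 0 counts in the 9 mice. Fth1 lies on the plus strand at chr19:9980598-9985098. Aligned with the 929 bases of the main Fth1 transcript model (GENCODE M21), Fth-ps3 matched positions 423 to 770, which fall in the coding sequence (positions 225 to 770) and cover parts or all of exons 2, 3 and 4 with 63, 126 and 159 bases. Over these positions 314 bases were identical and 34 were mismatched, an identity of 90.2%, and Fth-ps3 held 10 inserted bases in 3 gaps. The longest stretch without a difference was 37 bases. Gm6977 and Fth-ps2, other processed pseudogenes of Fth1, were 93.3% and 86.0% identical over the aligned bases and had longest identical stretches of 107 and 42 bases. The beginning of Fth-ps3, chr8:86915157-86915336 on the plus strand, is shown because its differences from the parent are what allows a read to be assigned to it. Capitals mark bases that are mismatched with Fth1 or inserted:
Fth-ps3: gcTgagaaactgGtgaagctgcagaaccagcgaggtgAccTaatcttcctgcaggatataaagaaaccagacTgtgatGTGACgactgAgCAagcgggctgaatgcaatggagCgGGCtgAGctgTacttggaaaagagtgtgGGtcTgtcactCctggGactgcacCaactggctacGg

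Within this stretch Fth-ps3 carried 27 bases in capitals of 180. The differences were spread over the whole of Fth-ps3, as the map of differences along the transcript shows.

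**Figure D1:**
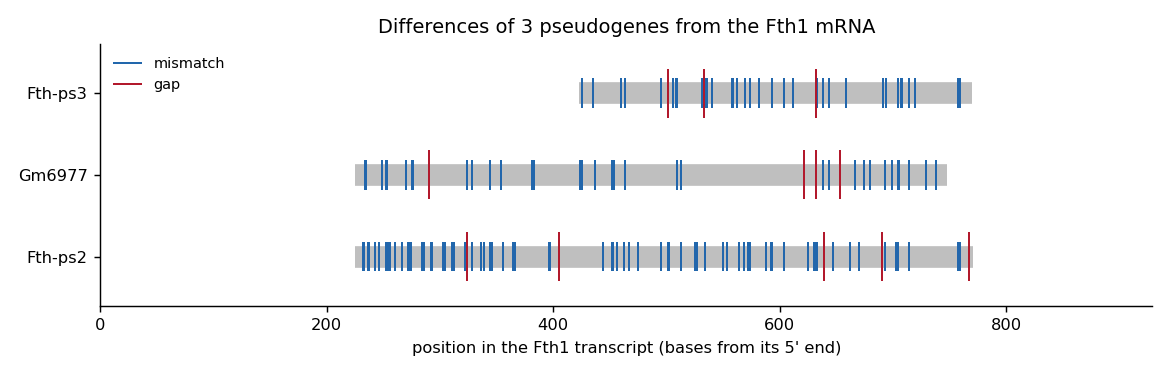
Positions in the Fth1 transcript, in bases from its 5′ end, at which the processed pseudogenes Fth-ps3, Gm6977 and Fth-ps2 carry a mismatch (blue) or a gap (red); the grey bars are the aligned stretches. Fth-ps3 covers positions 423 to 770, and its 34 mismatches and 3 gaps leave no identical stretch longer than 37 bases.

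The level of Fth-ps3 divided the KO mice. After TMM scaling it was 0.721 CPM in KO1, 5.03 in KO2, 6.52 in KO3, 5.49 in KO4 and 6.80 in KO5. In the WT mice it was 0.493 CPM in WT1, 0.443 in WT2, 0.717 in WT3 and 0.586 in WT4. KO2 to KO5 lay far above every other mouse, and the lowest of them was 7.01 times the highest WT mouse. KO1 lay at the WT level, and its order against WT3 turned on the scaling: on library totals alone KO1 had 0.71 CPM and WT3 0.722 CPM. The values rest on 148 to 209 counts in KO2 to KO5, on 23 counts in KO1 and on 15 to 21 counts in the WT mice, all above the 3 counts that a count of 0 would allow. KO2 and KO4, the mice left out of the study's comparison, were both among the high mice. The mean over all KO mice, 4.91 ± 2.45 CPM (SD, n = 5), lay just below KO2, the lowest of the high mice, and far above KO1. It was 8.77 times the WT mean of 0.560 ± 0.120 CPM (SD, n = 4).

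Fth1 did not show this division. Its level was 631 CPM in KO1, 580 in KO2, 756 in KO3, 699 in KO4 and 785 in KO5, and 600 CPM in WT1, 577 in WT2, 635 in WT3 and 732 in WT4. KO1 stood between KO2 and KO4, and WT4 above 3 of the KO mice. Between the highest and the lowest mouse Fth1 differed 1.36-fold and Fth-ps3 15.3-fold. Relative to the Fth1 counts of the same mouse, Fth-ps3 was at 0.868% in KO2, 0.862% in KO3, 0.786% in KO4 and 0.866% in KO5. KO1 was at 0.114%, and the WT mice at 0.0821%, 0.0768%, 0.113% and 0.0801%. Dividing by the parent thus kept the same mice high, and made the high mice more alike than they were in CPM.

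**Figure D2:**
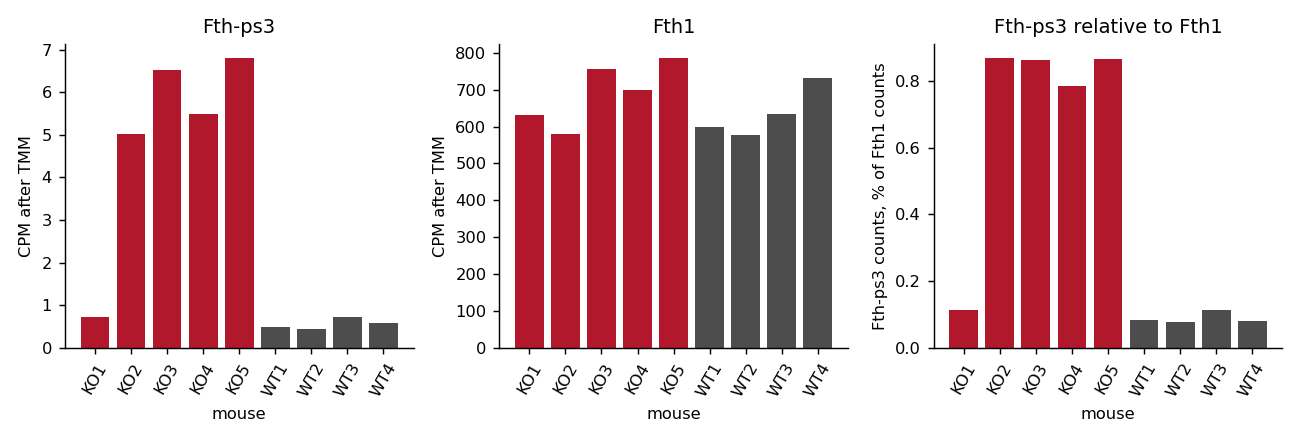
Fth-ps3 and Fth1 in CPM after TMM scaling, and Fth-ps3 counts as a percentage of Fth1 counts, in each of the 9 mice; each bar is 1 mouse, KO red and WT grey. Fth-ps3 lies between 5.03 and 6.80 CPM in KO2 to KO5 and at or below 0.721 CPM in the other mice, whereas Fth1 lies between 577 and 785 CPM without that division.

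Other ferritin copies were read in the same way, since near-identical copies can take reads from each other. Besides the ferritin genes among the 8, the table holds 13 loci whose symbols begin with Fth or Ftl. Of these, 8 had 0 counts in every mouse and the X-linked family member Fthl17a had at most 3 counts, while 4 reached 10 counts in a mouse: Fth-ps2, Ftl1-ps1, Ftl1-ps2 and Ftl2-ps. Gm6977 was added for its sequence, after its values had been seen. It had 32.3 to 39.2 CPM in KO and 31.8 to 37.1 CPM in WT, several times the level of Fth-ps3, and stayed between 4.57% and 5.57% of the Fth1 counts in all mice. KO1 and KO2 were at 5.56% and 5.57%, so the copy of Fth1 with the longest identical stretch did not follow Fth-ps3. Fth-ps2 had few counts, with 2 counts in KO1, 10 in KO2, 19 in KO3, 29 in KO4 and 24 in KO5, and 11, 17, 3 and 13 in WT1 to WT4. KO1 and WT3 were its lowest mice, and KO and WT overlapped.

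The copies of the light chain followed Ftl1 closely. Ftl2-ps, 98.7% identical to Ftl1 with an identical stretch of 306 bases, lay between 15.2% and 18.8% of the Ftl1 counts, and Ftl1-ps2, 97.8% identical, between 5.38% and 6.95%. Reads of these copies and of Ftl1 can be confused, so their levels are uncertain. Ftl1-ps1, annotated as protein-coding despite its name, at chr13:74399694-74407346 (plus strand), lay within a narrow range, and it was singled out after its values had been seen. Its counts were 32.1% of the Ftl1 counts in KO1, 37.1% in KO2, 36.2% in KO3, 37.3% in KO4 and 37.2% in KO5, against 33.2%, 32.1%, 33.3% and 33.3% in WT1 to WT4. KO2 to KO5 were thus again the highest mice and KO1 lay with WT, over a highest-to-lowest ratio of 1.16 compared with 11.3 for Fth-ps3 over Fth1. As a share of the summed Ftl1 and Ftl1-ps1 counts KO3, the lowest of the 4, had 26.6% (Wilson 95% 25.8 to 27.4) and WT3, the highest of the others, 25% (24 to 26), so the intervals of these neighbours touched. The intervals of KO2, KO4 and KO5 lay above those of KO1 and all WT mice. They cover counting error only, and for a gene singled out after its values were seen they are no further evidence of the division. Ftl1-ps1 matched positions 138 to 345 of the Ftl1 transcript at 99.5% identity, with an identical stretch of 149 bases. Its reads can thus also be confused with those of Ftl1, and its level is uncertain.

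**Figure D3:**
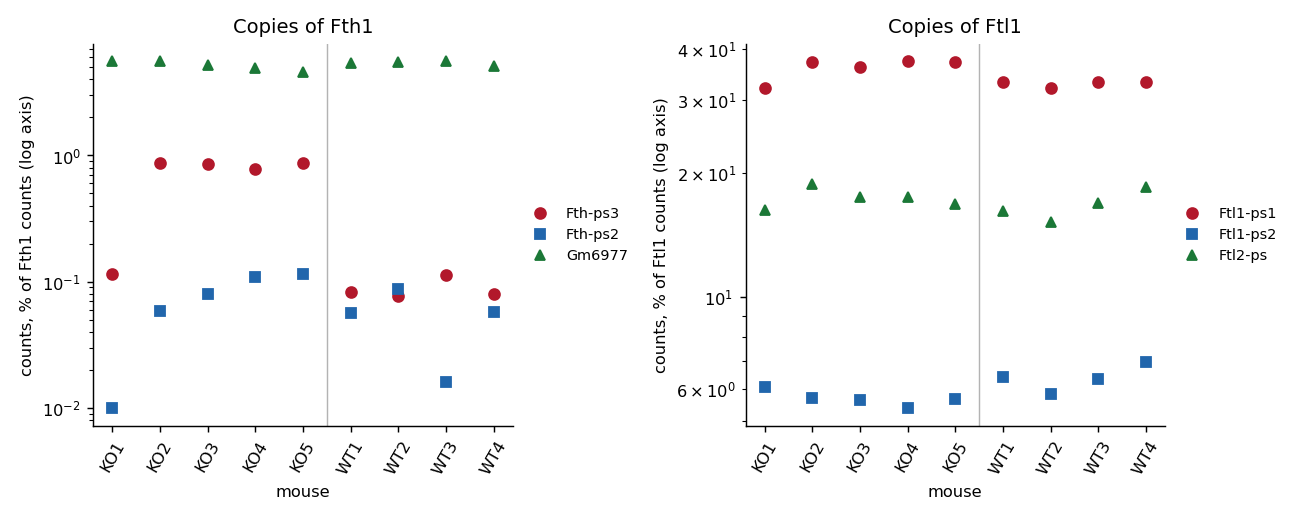
Counts of ferritin copies as a percentage of their parent's counts in the same mouse, on log axes, with the copies of Fth1 on the left and those of Ftl1 on the right; each point is 1 mouse and the grey line parts KO from WT. Fth-ps3 lies at or below 0.114% in KO1 and WT and at 0.786% to 0.868% in KO2 to KO5, while Gm6977 and the light chain copies stay within narrow bands.

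The genes beside Fth-ps3 on chromosome 8 did not share its pattern. The nearest gene with at least 10 counts was N4bp1, 29.9 kb before it, with 46.9 CPM in KO1, 47.5 in KO2, 35.7 in KO3, 30.3 in KO4 and 34.7 in KO5, and 37.6 to 41.4 CPM in WT. KO1 and KO2 were its highest mice, which does not match the order of Fth-ps3. The ubiquitin ligase Siah1a and Gm10638, both about 169 kb before it, had 28.8 to 39.9 and 1.89 to 5.33 CPM in KO against 30.3 to 33.9 and 2.9 to 5.63 CPM in WT. On the other side Rps13-ps1, 132 kb away, had 33 to 37.8 CPM in KO and 27.3 to 39 CPM in WT. Gm2694 and the synaptic organiser Cbln1, 545 and 553 kb away, were below 1.5 CPM in every mouse. KO and WT overlapped for each of these 6 neighbours, as they did for all but 149 of 21735 genes (0.686%). In none of the 6 did KO2 to KO5 lie together above or below KO1 and the WT mice.

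The genes whose log2 CPM over the 9 mice was most like that of Fth-ps3 lay elsewhere in the genome. Among 21734 genes the 5 highest Pearson correlations were those of the snoRNA DQ267100 on chromosome 12 (r = 0.986), the antisense transcript Gm26827 on chromosome 7 (0.969), the unclassified transcript Gm43333 on chromosome 5 (0.964), the processed pseudogene AC136453.1 on chromosome 19 (0.953) and mt-Tg, the mitochondrial tRNA for glycine (0.951). These are descriptions over 9 libraries, which share their scaling, and high correlations are found when so many genes are searched. DQ267100 had 0.345 CPM in KO1 and 1.14 to 1.57 CPM in KO2 to KO5, against 0.237 to 0.358 CPM in WT. Gm43333 had 0.125 CPM in KO1, 1.8 in KO2, 1.76 in KO3, 2.97 in KO4 and 2.2 in KO5, against 0 to 0.137 CPM in WT. AC136453.1 had 0.282 CPM in KO1, 0.819 to 0.951 CPM in KO2 to KO5 and 0.137 to 0.260 CPM in WT. Their likeness to Fth-ps3 follows from how they were chosen and is no further evidence of the division. Some rest on few counts outside KO2 to KO5: Gm43333 had 4 counts in KO1 and 0 to 4 in WT, and AC136453.1 9 in KO1 and 4 to 8 in WT.

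The most abundant of the 5 was mt-Tg, with 9.34 CPM in KO1, 36.4 in KO2, 56.5 in KO3, 97.4 in KO4 and 78.7 in KO5, and 7 to 12.6 CPM in WT. Of 21 mitochondrial tRNA genes compared, mt-Tg and mt-Td, the tRNA for aspartate (0.941), had r above 0.9, and the others lay between -0.50 and 0.65. All mitochondrial genes together took 5.17% of the counts in KO1, 3.98% to 7.88% in KO2 to KO5 and 3.81% to 6.54% in WT, so the division is not seen in the mitochondrial total. Pseudogenes other than Fth-ps3 took 6.80% of the counts in KO1, 5.96% to 7.60% in KO2 to KO5 and 6.19% to 7.66% in WT, which did not divide the mice either. Over all genes compared, 21 had r of at least 0.9 with Fth-ps3, 7 of them pseudogenes, and 16 had r of -0.9 or below, 13 of them pseudogenes, while 3503 of all 21734 (16.1%) are annotated as pseudogenes. What these features share with Fth-ps3 beyond the pattern was not tested. Neither the labels nor the methods give litters, preparation batches or sequencing runs, so a difference of KO2 to KO5 from the other mice in any of these cannot be told apart from the division described here, and the ratio of the KO to the WT mean of Fth-ps3 carries the same limit. For the 7 iron genes r with Fth-ps3 lay between -0.36 for Tfrc and 0.64 for Ftl1, and Fth1 was at 0.53, rank 1464.

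**Figure D4:**
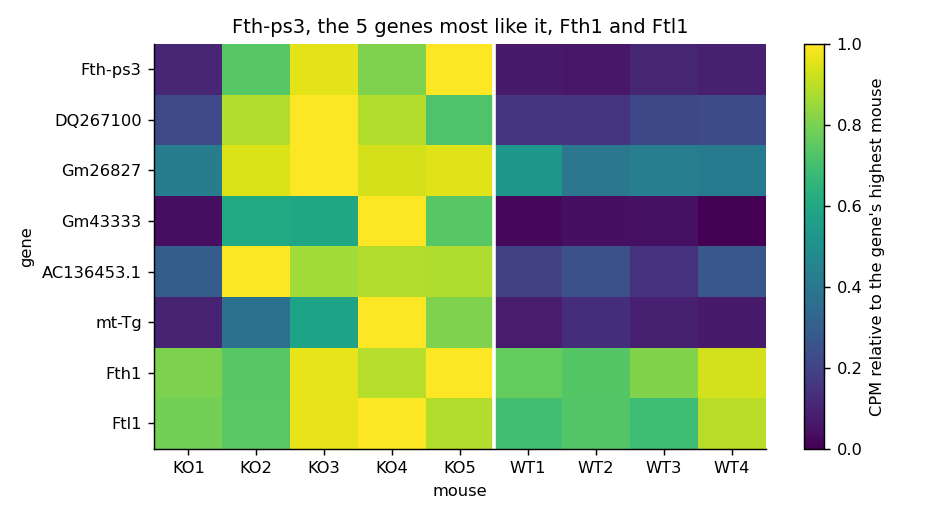
Level of Fth-ps3, of the 5 genes most like it and of Fth1 and Ftl1 in each mouse, as a fraction of each gene's highest mouse in CPM; the white line parts KO from WT. Within each of the upper 6 rows KO2 to KO5 are brighter than KO1 and WT, whereas Fth1 and Ftl1 are bright throughout. The shades of KO2 to KO5 differ between rows, with mt-Tg at 36.4 CPM in KO2 and 97.4 CPM in KO4.

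None of the 7 iron genes listed by name was called between the genotypes, and by the study's criterion in edgeR's test neither was any other gene. The shares over all genes given next are so low that 0 of 7 says little about these genes. In the main comparison of edgeR's quasi-likelihood test, 0 of the 7 had an unadjusted p below 0.05, where 453 of 21809 genes tested did (2.08%), and with all 9 mice again 0 of 7, where 442 of 21735 did (2.03%). The study's criterion, p below 0.05 with a false discovery rate below 25%, applied here to edgeR's test, called 0 genes in all (0%) in either comparison, while DESeq2 called 6 and limma-voom 0 in the main one. The adjusted p over all genes was 1 for each of the 7 in both comparisons. The median log2 fold change of the 7 was 0.08, beside -0.01 over all genes tested. KO and WT levels overlapped for each of them, as they did for all but 149 of 21735 genes (0.686%). Per kilobase of annotated exon the WT levels ran from Fth1 at 183 ± 19.6 and Ftl1 at 159 ± 20 CPM per kb through Tfrc at 14 ± 3.15, Aco1 at 9.86 ± 0.382 and Ireb2 at 9.29 ± 1.36 to Slc40a1 at 3.28 ± 0.484 and Slc11a2 at 2.34 ± 0.204 (SD, n = 4). The ranges of Fth1 and Ftl1 overlapped, as did those of Tfrc, Aco1 and Ireb2, whereas both ferritin genes lay above all others, Slc40a1 lay below these 3 and Slc11a2 below Slc40a1 without overlap. The order of the ferritin genes depends on the length used: per kilobase of the main transcript, of 929 bases for Fth1 and 968 for Ftl1, their WT levels were 685 ± 73.3 and 220 ± 27.7 CPM per kb (SD, n = 4) and did not overlap. On the first scale Fth-ps3 was at 1.56 ± 0.336 CPM per kb in WT.

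Neither ferritin gene passed the test, and both were on average higher in KO. Ftl1 had 223 CPM in KO1, 210 in KO2, 273 in KO3, 282 in KO4 and 250 in KO5, against 197, 207, 194 and 252 CPM in WT1 to WT4. Every KO mouse lay above 3 of the 4 WT mice, and WT4 lay above 3 KO mice. The log2 fold change of Ftl1 was 0.22 ± 0.13 (SE) in the main comparison, a 1.16-fold difference with an adjusted p of 1 in edgeR's test, and 0.22 ± 0.12 in all 9 mice, again with an adjusted p of 1. The log2 fold change of Fth1 was 0.18 ± 0.13 and, with 9 mice, 0.12 ± 0.11, with an adjusted p of 1 in both. The exact 2-sided permutation test of log2 CPM gave p = 0.143 for Ftl1 and 0.171 for Fth1 in 3 against 4 mice, where the smallest possible value is 0.0286, and p = 0.119 and 0.341 in 5 against 4, where it is 0.00794. Y-linked genes summed to 190 to 248 CPM in KO1, KO2, KO4, WT1 and WT2 and to at most 0.423 CPM in the other mice. Among the 3 KO and 2 WT mice with Y-linked expression the difference in mean log2 CPM was 0.11 for Fth1 and 0.23 for Ftl1, and among the 2 KO and 2 WT mice without it 0.18 and 0.24. Fth1 exceeded Ftl1 in CPM by 2.48- to 3.14-fold in KO and by 2.79- to 3.27-fold in WT.

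The uptake gene Tfrc and the exporter Slc40a1 varied widely between mice of 1 genotype. Tfrc was at 113 CPM in KO1, 90.4 in KO2, 66.8 in KO3, 66 in KO4 and 86.5 in KO5, and at 93.1, 100, 94.8 and 57.6 CPM in WT1 to WT4. WT4 was the lowest of all mice and KO1 the highest, and the log2 fold change was 0.03 ± 0.21 (SE; exact permutation p = 0.857). KO1 also had the highest summed level of 11 erythroid markers, 5786 CPM against 1228 to 2196 CPM in the other KO and 1456 to 2011 CPM in WT mice, and its Alas2, the erythroid enzyme of heme synthesis, was at 40.1 CPM against at most 12.7 CPM elsewhere. Developing red cells carry much Tfrc; the part of this in the Tfrc level was not tested, and the log2 fold change was -0.18 without KO1 and -0.12 without WT4. Slc40a1 was at 43.5, 35.6, 21, 21.9 and 34.5 CPM in KO1 to KO5 and at 35, 30.7, 27.5 and 24.9 CPM in WT1 to WT4. The KO range enclosed the WT range, with a log2 fold change of 0.15 ± 0.21 (exact permutation p = 0.743) that was -0.10 without KO1 and 0.39 without KO3. Macrophages, which are rich in ferroportin, had a summed level of 12 markers of 195 to 277 CPM in KO and 204 to 260 CPM in WT, with 0 of the 10 markers tested reaching an unadjusted edgeR p below 0.05, beside 2.08% of all genes, a share at which so few markers say little.

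Slc11a2 had the lowest p of the 7. It was at 13.3, 18.9, 12.5, 11.3 and 11.9 CPM in KO1 to KO5 and at 16, 15.5, 15 and 13.1 CPM in WT1 to WT4. All KO mice but KO2 and KO1 lay below the WT range, and KO2, which the main comparison leaves out, lay above it. The log2 fold change was -0.25 ± 0.12 (SE, p = 0.0646, adjusted p = 1 in edgeR's test) without KO2 and KO4 and -0.13 ± 0.15 (p = 0.393) with them, and the exact permutation p was 0.0857 and 0.381. Slc11a2 is on chromosome 15, as Shank3 is, 10.8 Mb away from it.

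The iron sensors lay at similar levels in both genotypes. Aco1 was at 45.6, 50.8, 47.8, 38.2 and 47.7 CPM in KO1 to KO5 and at 42.8 to 46.7 CPM in WT, a log2 fold change of 0.08 ± 0.09 (SE; exact permutation p = 0.114). Ireb2 was at 101, 89.1, 80.2, 80.2 and 91.9 CPM in KO1 to KO5 and at 99.1, 91.3, 92.3 and 69.4 CPM in WT1 to WT4, a log2 fold change of 0.04 ± 0.13 (exact permutation p = 0.771). As with Tfrc, WT4 was the lowest and KO1 the highest mouse for Ireb2, and the log2 fold change was -0.06 without WT4 and -0.04 without KO1.

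**Figure D5:**
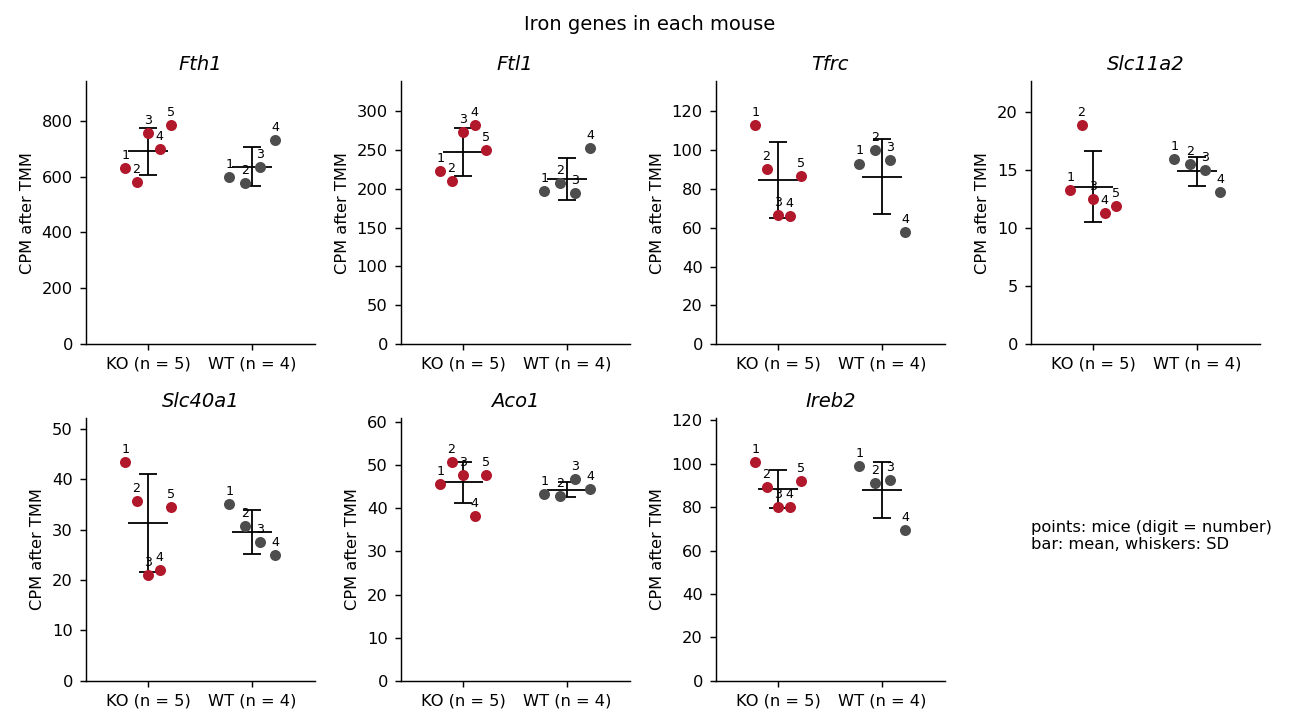
Levels of the 7 iron genes listed by name, in CPM after TMM scaling on axes from 0; each point is 1 mouse with its number, the bar is the mean and the whiskers the SD over 5 KO or 4 WT mice. KO and WT overlap in every panel, and mouse 4 of WT stands low for Tfrc and Ireb2 and high for Fth1 and Ftl1.

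Some pairs of the iron genes varied with each other across the 9 mice, with either sign, and Aco1 was in none of them. Of the 21 pairs among the 7 genes, 6 had an adjusted p below 0.05 for Pearson's r of log2 CPM in an exact permutation test, and 0 for Spearman's rho. The 6 pairs had r of at least 0.78 in size, as did 3.66% of all pairs of the 21735 genes in these libraries; whether the 7 genes differ from other genes in this was not tested. Tfrc and Ireb2 had r = 0.94 (permutation p = 0.000446, adjusted 0.00937) and rho = 0.83 (p = 0.00827, adjusted 0.0868), and r was 0.87 without KO4 and WT4, the mice farthest from the median of Tfrc. Tfrc and Slc40a1 had r = 0.83 (adjusted permutation p = 0.0440) and rho = 0.67 (adjusted 0.175), with r = 0.82 without those mice. Slc40a1 and Ireb2 had r = 0.78 (adjusted permutation p = 0.0497) and rho = 0.73 (adjusted 0.131), with r = 0.71 without KO1 and KO3. Fth1 and Ftl1 had r = 0.81 (adjusted permutation p = 0.0497) and rho = 0.63 (adjusted 0.177), with r = 0.79 without KO3 and KO5. Slc11a2 went the opposite way to both ferritin genes, with r = -0.83 for Fth1 and -0.82 for Ftl1 (adjusted permutation p = 0.0440 for each) and rho = -0.83 and -0.80 (adjusted 0.0868 and 0.0968). Without the 2 farthest mice these were -0.81 and -0.73. The ratio of Fth1 to Tfrc in CPM showed the same spread, with 11.3 in KO3, 10.6 in KO4, 9.08 in KO5 and 12.7 in WT4, against 5.57 and 6.41 in KO1 and KO2 and 5.76 to 6.70 in WT1 to WT3. High and low mice were found in both genotypes. KO3, KO4 and KO5 also had high Fth-ps3, whereas KO2 had high Fth-ps3 with a low ratio and WT4 a high ratio with low Fth-ps3. WT4 had the highest summed skeletal muscle markers, 60811 CPM against 52756 to 58754 CPM in the other mice, and their part in these relations was not tested. KO1, the mouse with the highest erythroid markers, was also the highest for Tfrc, Slc40a1 and Ireb2; without it, over 8 mice, r was 0.76 for Tfrc and Slc40a1, 0.93 for Tfrc and Ireb2 and 0.71 for Slc40a1 and Ireb2. With levels centred separately in the 5 mice with and the 4 without Y-linked expression, a calculation added after seeing the data, r of the 6 pairs was 0.92 for Fth1 and Ftl1, -0.87 and -0.80 for Slc11a2 with Fth1 and Ftl1, 0.93 for Tfrc and Ireb2, 0.78 for Tfrc and Slc40a1 and 0.72 for Slc40a1 and Ireb2. Levels scaled to 1 library total are not independent of each other.

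The iron-responsive element was searched for in the untranslated regions of the transcript models, as the letters CNNNNNCAGTGN followed by 5 bases that pair with the 5 bases before the loop, on the transcript strand, with G-U pairs allowed and no G at the last loop base. Of 21877 protein-coding genes 123 held a match (0.562%), and 4 of the 7 iron genes did: Fth1, Ftl1 and Slc40a1 with 1 each in the 5′ UTR and Tfrc with 4 in the 3′ UTR. They are shown because the genes above are the mRNAs on which the proteins of Aco1 and Ireb2 act, with the 6 loop bases in capitals:
Fth1 (chr19:9982733-9982759, plus strand): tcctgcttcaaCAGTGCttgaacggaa
Ftl1 (chr7:45459780-45459806, minus strand): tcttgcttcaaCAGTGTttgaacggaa
Slc40a1 (chr1:45925466-45925492, minus strand): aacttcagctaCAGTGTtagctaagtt
Tfrc, loop 1 (chr16:32631220-32631246, plus strand): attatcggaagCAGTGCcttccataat
Tfrc, loop 2 (chr16:32631599-32631625, plus strand): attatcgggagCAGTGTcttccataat
Tfrc, loop 3 (chr16:32631664-32631690, plus strand): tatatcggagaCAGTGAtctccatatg
Tfrc, loop 4 (chr16:32631711-32631737, plus strand): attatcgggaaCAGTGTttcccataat

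Aco1, Ireb2 and Slc11a2 had 0 matches of these letters, which says nothing on other forms of the hairpin.

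No gene of the wider iron pathway was called, and as no gene at all was called in either edgeR comparison, this is no trait of the pathway. The counts of unadjusted p below are likewise near the low shares over all genes and say little for lists of this size. Across 8 lists with 63 genes, the 7 above included, the main comparison tested 59 and that of all 9 mice 58, and none of these genes, 0 of 59 and 0 of 58, had p below 0.05 before adjustment, beside 2.08% and 2.03% of all genes; DESeq2 and limma-voom also gave 0 of 59. Of the 59, 42 had a log2 fold change above 0 and 17 below, with a median of 0.06 beside -0.01 over all genes tested. Of the 58 with 9 mice, 37 were above 0 and 21 below, with a median of 0.05 beside 0.00. Directions over all genes are not given, so these counts and those of the single lists below do not show a shared rise. In iron uptake 8 of 13 genes tested were above 0 and 5 below (median 0.04), and the farthest was Trf, which encodes the plasma iron carrier transferrin, at 0.97 ± 0.49 (SE; exact permutation p = 0.286), and 0.62 ± 0.47 (p = 0.492) with all 9 mice. Its level was 75.7 CPM in KO5, 33.7 in KO1 and 17 to 20.1 CPM in KO2, KO3 and KO4, beside 14.7 to 31.2 CPM in WT, so that 1 mouse carried the difference. Among ferritin storage and loading genes, the ferritin receptor of autophagy Ncoa4 and the iron chaperones Pcbp1 and Pcbp2 stood beside Fth1 and Ftl1, with 3 of 5 above 0 and a median of 0.01. Iron export and ferroxidases had 4 of 5 above 0 (median 0.18), the regulatory proteins with their ubiquitin ligase adaptor Fbxl5 3 of 3 (0.04), systemic regulation 3 of 5 (0.04), mitochondrial iron and iron-sulphur cluster genes 13 of 18 (0.06) and heme breakdown 4 of 4 (0.09). Heph, among the export genes above 0, had a log2 fold change of 0.88 ± 2.08 (SE). Among the KO mice compared this rests on KO3 alone, at 15.1 CPM against 0.0627 in KO1 and 0.152 in KO5. With all 9 mice Heph was not tested, since too few mice reached the minimum count. With all 9 mice systemic regulation turned to 2 of 5 (median -0.02), iron uptake was at 7 of 13 (0.06), export and ferroxidases at 3 of 4 (0.12), the regulatory proteins at 3 of 3 (0.04), mitochondrial iron genes at 12 of 18 (0.04) and heme breakdown at 3 of 4 (0.10). Heme oxygenase Hmox1 was at 0.51 ± 0.30 (exact permutation p = 0.371), and at 0.30 ± 0.30 (p = 0.611) with all 9 mice, with 53.5 CPM in KO5 and 18 to 34.6 CPM in the other KO mice beside 19.6 to 30.6 CPM in WT. The targets of NRF2, a stress-response factor that also acts on ferritin genes, had 5 of 7 above 0 (median 0.09), and the cystine carrier Slc7a11 had 0.32 ± 0.17 (exact permutation p = 0.2), and 0.30 ± 0.14 (p = 0.111) with all 9 mice. The hepatic hormone gene Hamp and its copy Hamp2, Tfr2 and the mitochondrial ferritin gene were too low to be tested.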

How the data were processed

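The deposited values are raw counts per Ensembl gene, which the authors obtained by HISAT2 alignment to mm10 and featureCounts, keeping concordant alignments only. The sources used here do not give the gene annotation, read length, strand setting or handling of multi-mapping reads, and counts of near-identical copies are uncertain. Symbols and positions came from GENCODE M21 (55144 of 55471 IDs). Counts were scaled by TMM over the 9 mice to CPM, and log2 CPM took a prior count of 2. Genotypes were compared with edgeR 4.0.16 (filterByExpr, minimum count 10, total 15; robust quasi-likelihood test; Benjamini-Hochberg adjustment over all genes), KO1, KO3 and KO5 against 4 WT; the methods give insufficient reads as the reason for leaving out KO2 and KO4, whose counts here total 28211941 and 40471957. In counts simulated for 3 against 4 mice, 74.5% of 200 genes changed 2-fold were called. Calls among the unchanged genes are not given, and whether simulated mice vary as the real ones do was not tested. Among the iron genes listed by name, fold differences in the main comparison ran from 0.84 for Slc11a2 to 1.16 for Ftl1. The simulated share therefore says nothing about differences of that size. Alternatives were DESeq2 1.42.0, limma-voom 3.58.1, other scalings, filters and subsets of mice. Exact permutation tests were 2-sided. Sequences were aligned locally with Biopython. Members and gene lists were chosen with earlier results of these data known. Named genes were the 8 members, ferritin loci with at least 10 counts in a mouse, iron list genes with p below 0.05 (there were 0), the 5 best correlates of Fth-ps3 and 3 neighbours on each side; Gm6977, mt-Td, Trf, Hmox1, Slc7a11, Heph and marker genes were named after their values were seen. Nothing in the labels says that the mice came from separate litters, so p-values measure the spread between these mice. Some items are not reported here.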

Additional observations from a re-analysis of the deposited data

Results flagged for a closer look

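In 54 groups of mice examined for 27 genes or marker sums, 9 had a mouse far from the others of its genotype by Dixon's gap. The limit used is passed by about 1 in 20 groups of independent, unselected values. The groups here are not of that kind, since some genes were chosen for their pattern and the copies of Ftl1 can share reads. The 9 can therefore not be read against that rate. Among the WT mice, WT4 was apart for Tfrc (57.6 CPM, the next mouse 93.1), for Ftl1-ps1 (83.9 CPM, next 66.3), for Ftl1-ps2 (17.5 CPM, next 12.7) and for Ftl2-ps (46.7 CPM, next 32.9), so that the receptor was low and the ferritin copies high in the same animal. WT3 was apart for the lincRNA Gm2694 (0.376 CPM, next 0.177), a level of few counts. Among the KO mice, KO1 was below the others for Gm26827 (0.439 CPM, next 0.973) and AC136453.1 (0.282 CPM, next 0.819), which were chosen for their likeness to Fth-ps3, and above them in summed erythroid markers (5786 CPM, next 2196). KO2 was above the others for Slc11a2 (18.9 CPM, next 13.3). Causes were not tested.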

How the results depend on the processing

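Over 20 alternatives for each of the 7 iron genes, 125 of 140 values kept their direction and 0 met the call criterion; Fth1, Ftl1, Slc11a2 and Aco1 kept theirs in all 20. An unadjusted p below 0.05 was found in 4 of the 140, for Ftl1 with the replicate block (log2 fold change 0.328) and without WT4 (0.314), Slc11a2 without WT4 (-0.306) and Slc40a1 without KO3 (0.393). Over all genes 844 had such a p with the block, 451 without WT4 and 794 without KO3. The alternatives share most of their mice, so 4 of 140 says little about the 7 genes. Tfrc reversed with all 9 mice (-0.031), with a replicate block (-0.112; -0.043 in 9 mice) and in 9 mice except KO1 (-0.157), and its leave-one-out range was -0.179 to 0.201. Slc40a1 reversed with the replicate block (-0.032; -0.008 in 9 mice) and in 9 mice except KO1 (-0.064; leave-one-out -0.098 to 0.393), and Ireb2 with the block (-0.095; -0.002 in 9 mice) and in 9 mice except KO1 (-0.044; leave-one-out -0.056 to 0.121). The last subset and 9 mice except KO4 were chosen after seeing the data. Equal numbers were not taken to pair the mice, since same-numbered deviations correlated at 0.373, 0.052, 0.357 and 0.101, not all above 0.1, and 5 of 8 mice correlated best with their own number; the labels name no shared litter, and a partial pairing remains possible. Genes called moved from 0 to 1 without a filter, 6 with DESeq2, 9 with the block (2 in 9 mice), 1 with Y-linked level as covariate, 7 in 9 mice except KO1 and 0 to 15 on leaving out each mouse (15 without KO1, 4 without KO3). Genes with p below 0.05 moved from 453 to 972 without a filter, 844 with the block and 224 to 968 on leaving out each mouse (968 without KO1, 794 without KO3, 224 without KO5). Iron list genes with p below 0.05 are given next, with all genes of such a p at the same setting in brackets. They moved from 0 (453) to 1 without a filter (972), 1 without robust estimation (470) and 4 with the block (844). They were 1 with the block in 9 mice (452), 2 with the Y-linked covariate (592) and 1 in 9 mice except KO1 (571). On leaving out each mouse they were 0 to 4, with 4 without KO3 (794), 3 without WT4 (451) and 1 without KO1 (968). Counts this small say little about the lists. The ratio of the KO to the WT mean of Fth-ps3 was 8.63 on library totals, 7.95 relative to Fth1 and 7.93 to 10.6 on leaving out each mouse, highest without KO1. The causes of these changes were not tested.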

Other observations

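Hephaestin (Heph), a copper-containing ferroxidase that works beside ferroportin, exceeded 1 CPM in 3 of the 9 mice; it was singled out after its values were seen. It had 15.1 CPM in KO3, 5.6 in WT3 and 5.53 in WT4, against 0.0627 in KO1, 0.102 in KO2, 0 in KO4 and 0.152 in KO5, and 0 in WT1 and WT2. These 3 mice are among the 4 without Y-linked expression (KO3, KO5, WT3 and WT4), and the remaining one, KO5, was at the level of the other mice. Heph lies at chrX:96455359-96574485, and the X-linked genes beside it did not share this pattern: Msn had 158 to 237 CPM, Las1l 46.6 to 55.3 CPM and Eda2r 8.34 to 17.6 CPM over the 9 mice.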
